A study of Mus musculus with 4 samples.

Results

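The laminin chain genes of the array were 6 of its 84 wells, taken by position: *Lama1* (D08), *Lama2* (D09), *Lama3* (D10), *Lamb2* (D11), *Lamb3* (D12) and *Lamc1* (E01). Laminins are secreted glycoproteins of basement membranes, each a trimer of one α, one β and one γ chain. They assemble into a sheet beside the collagen IV network and are bound by integrins on the cell surface. In bone they are best known from the walls of blood vessels, while the matrix that osteoblasts lay down is mainly type I collagen. The wells carry no gene names in the deposited data. Names follow the alphabetical layout of the array. Of the laminin wells, that of *Lama1* is also the one whose Ct differences, set against those of the *Col1a1* well of the layout, match the fold changes printed for the gene by the study. The other laminin names, and most of the other names used here, rest on the layout alone.

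Expression was measured by quantitative PCR in primary osteoblasts (OBs) isolated from male and female *Vegf* fl/fl mice aged 4 days and used at passage 1. All 4 cultures carried the floxed allele and all received adenovirus for 6 days, followed by 24 h in medium with 1% serum. Adenovirus-Cre-GFP, which deletes *Vegf*, gave the OBVEGFKO cultures, and adenovirus-GFP gave the cultures called WT, so WT cells were also floxed and transduced. There was thus a WT and an OBVEGFKO culture of each sex, and 1 cDNA was made from 500 ng RNA of each. The number of mice behind a culture is not given in the sources used here, and *Vegf* mRNA was not analysed here. Comparisons of single cultures therefore have no replicate error and no test.

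The cycle threshold (Ct) counts the PCR cycles a well needs to reach a given brightness, and at full efficiency 1 cycle less means 2-fold more template. The highest value was 35, which was read as a limit of detection. In all 4 cultures 76 wells stayed below that value, and the 6 laminin wells were among them. Each culture was scaled to the mean Ct of the other 70 of these wells, here called the panel reference, which was 25.58 and 22.14 in WT and OBVEGFKO cells of females and 25.15 and 22.25 in those of males. Values given below for all cultures keep this order. A level relative to the panel is the reference Ct minus the Ct of the well, on the log2 scale. The 4 wells of osteoblast matrix genes (*Col1a1*, *Spp1*, *Sparc* and *Postn*) were below 35 in every culture, and *Sparc* (osteonectin), the one with the lowest median Ct, stood at 17.52, 15.07, 17.33 and 14.64. Wells named for other cell types were also amplified. *Itgb2*, the β2 integrin of leukocytes, had Ct values of 23.50, 19.44, 23.34 and 19.70. In such bulk RNA, fewer cells of a type and less RNA per cell cannot be told apart.

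One laminin reading stood apart from all others. *Lamc1* encodes γ1, the γ chain of most laminins, and its well gave a Ct of 13.67 in female OBVEGFKO cells, against 31.97 in female WT, 31.56 in male WT and 28.83 in male OBVEGFKO cells. The first value lay 15.16 cycles from the nearest of the others and was the lowest Ct of all 84 wells in that culture. It is reported as a possible failed reading. Only 2 other wells had a reading more than 5 cycles from every other reading of the same well. These were *Sele* (F06), with a Ct of 15.65 in the same female OBVEGFKO culture and 35 in the other cultures, and *Timp1* (G06), with a Ct of 30.02 in female WT cells. Every *Lamc1* value that rests on the female OBVEGFKO culture is given below as resting on it, with the value without it where one exists.

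**Figure D1:**
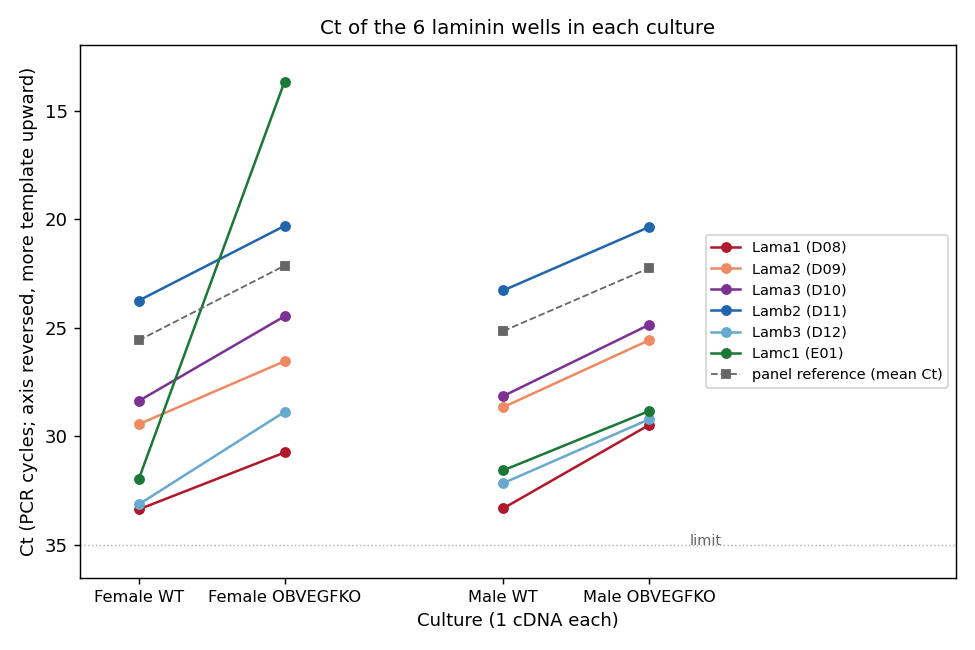
Ct of each laminin well (y axis, PCR cycles, reversed so that more template lies higher) in the 4 cultures (x axis), 1 cDNA per point; lines join the WT and OBVEGFKO culture of a sex, and grey squares are the panel reference. All lines go up from WT to OBVEGFKO, the panel reference included, and the *Lamc1* line of female cells ends at 13.67.

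The laminin wells covered much of the measured range. *Lamb2*, which encodes the β2 chain found in vessel and neuromuscular basement membranes, was the earliest to amplify apart from the doubtful *Lamc1* reading, with Ct values of 23.75 and 20.31 in WT and OBVEGFKO cells of females and 23.28 and 20.36 in those of males. It was 31st, 33rd, 30th and 28th of the 84 wells from the lowest Ct, and the one laminin well that amplified before the panel reference in every culture. *Lama3* (α3, a chain of epithelial laminins) followed, at 28.37, 24.47, 28.14 and 24.86. *Lama2* (α2, the laminin chain of muscle and peripheral nerve) came next, at 29.44, 26.54, 28.65 and 25.57. *Lama3* amplified before *Lama2* in all 4 cultures, but the distance varied between 0.51 cycles in male WT and 2.07 cycles in female OBVEGFKO cells.

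The last 3 wells amplified late and were the closest to the limit. *Lamb3* (β3, the partner of α3 in the laminin that anchors epithelia) had Ct values of 33.13, 28.87, 32.15 and 29.21. *Lama1* (α1, the main α chain of early embryonic basement membranes) had values of 33.36, 30.74, 33.31 and 29.47, the highest laminin Ct in every culture. The distance from *Lamb3* to *Lama1* was 0.23, 1.87, 1.16 and 0.26 cycles, so that it was smallest in female WT and male OBVEGFKO cultures. Apart from the reading of 13.67, *Lamc1* lay just before *Lamb3*, by 1.16, 0.59 and 0.38 cycles in female WT, male WT and male OBVEGFKO cells. Without replicate wells the order of these 3 genes has no error. Each well has its own primers, so the order of Ct is that of amplification and not of transcript number.

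Relative to the panel, the laminin genes differed widely in how constant they were. The 4 cultures differ in sex and genotype and are not replicates. Over them *Lamb2* had a level of 1.86 ± 0.03 (SD, n = 4). This was the smallest SD of the 76 wells, for which the median SD was 0.30. It depended on the reference, which includes the *Timp1* well. With the median Ct as the reference, *Lamb2* differed by −0.21 in female OBVEGFKO versus WT and by −0.20 in male versus female WT cells. With wells that had a doubtful reading left out of the reference, these were 0.10 and 0.14. *Lama3* had a level of −2.68 ± 0.28 and *Lamb3* one of −7.06 ± 0.35, both close to the median in spread. *Lama2* (−3.77 ± 0.48) and *Lama1* (−7.94 ± 0.58) varied more, at 56th and 62nd of 76 from the smallest SD. *Lamc1* had a level of −6.46 ± 0.11 over the 3 cultures without the doubtful reading, and of −2.73 ± 7.47 over all 4.

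The array bears on how matrix genes differ after loss of *Vegf* in each sex. In female OBs, the Ct of the laminin wells was lower in OBVEGFKO than in WT cells by 2.62 cycles for *Lama1*, 2.90 for *Lama2*, 3.90 for *Lama3*, 3.44 for *Lamb2* and 4.26 for *Lamb3*. These changes were shared by the array, since the Ct of 76 of 76 wells was lower by at least 1 cycle (100%) and the median change was −3.28 cycles (interquartile range −3.59 to −3.00). A lower Ct in OBVEGFKO cells was therefore not particular to the laminin genes. An equal mass of RNA had gone into each cDNA. The housekeeping wells were not analysed here, so the values that follow set the laminin genes against the other wells.

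Against the panel, loss of *Vegf* in female OBs went with lower α1 and α2 and higher α3 and β3 chain genes, the first pair being higher too where Ct was not scaled. *Lama1* had a log2 difference of −0.82 (1.77-fold lower) and *Lama2* one of −0.54, at 68th and 60th of the 76 wells from the highest. *Lamb3* had a difference of 0.82 (1.76-fold higher) and *Lama3* one of 0.46, at 8th and 13th. Late wells spread more here, without wells that had a reading apart. The median departure from the typical (median) well was 0.69 in wells that reached over 30, the class of *Lama1* and *Lamb3*. It was 0.19 in wells that never exceeded 26. *Lamb2* was level with the panel at 0.00. None of these 5 genes was 2-fold from the panel, and 11.8% of the 76 wells were, although *Lama1* passed 2-fold, at −1.04, with the median Ct as the reference. The median of the 5 genes was 0.00, beside −0.16 for all 76 wells. *Lamc1*, the sixth, was 18.30 cycles lower in Ct and 14.86 above the panel on the log2 scale, which rests on the doubtful reading, and it has no female value without it.

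In male OBs, the Ct was lower in OBVEGFKO than in WT cells by 3.84 cycles for *Lama1*, 3.08 for *Lama2*, 3.28 for *Lama3*, 2.92 for *Lamb2*, 2.94 for *Lamb3* and 2.73 for *Lamc1*. Again every one of the 76 wells was lower by at least 1 cycle (100%), with a median of −2.84 cycles. Wells that reached 35 in any culture are not among these 76. Of those wells, *Hc* and *Itgae* went from 34.93 and 34.55 in male WT to 35 in male OBVEGFKO cells. *Cdh1*, *Cdh3* and *Col4a3* were lower in male OBVEGFKO cells, and the rest stayed at 35. Against the panel, *Lama1* was 1.91-fold higher (log2 difference of 0.94, 6th of 76) and *Lama3* 1.30-fold higher (0.38, 14th). In males the median departure from the typical well was 0.42 in wells that reached over 30 and 0.24 in those that never exceeded 26. *Lama2* (0.18), *Lamb3* (0.04), *Lamb2* (0.02) and *Lamc1* (−0.17) lay within the interquartile range of the wells, from −0.33 to 0.25. No laminin gene was 2-fold from the panel, against 7.89% of the wells.

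Apart from *Lamc1*, the laminin gene with the widest gap between the sexes was *Lama1*. Its change from WT to OBVEGFKO, relative to the panel, was higher in male than in female cells by 1.76 on the log2 scale, the second highest of the 76 wells, for which the median difference was 0.10 (interquartile range −0.15 to 0.41). The difference was 0.72 for *Lama2* (12th), 0.02 for *Lamb2*, −0.08 for *Lama3* and −0.78 for *Lamb3* (70th). For *Lamc1* it was −15.03 and rests on the doubtful reading. The differences were not tested, since each is made from 4 single cultures. They were also larger among late wells: the median departure from the typical well was 0.18 in 42 wells that never exceeded 26 and 0.86 in 18 wells that reached over 30, the class of *Lama1* and *Lamb3* (wells with a reading apart were left out).

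**Figure D2:**
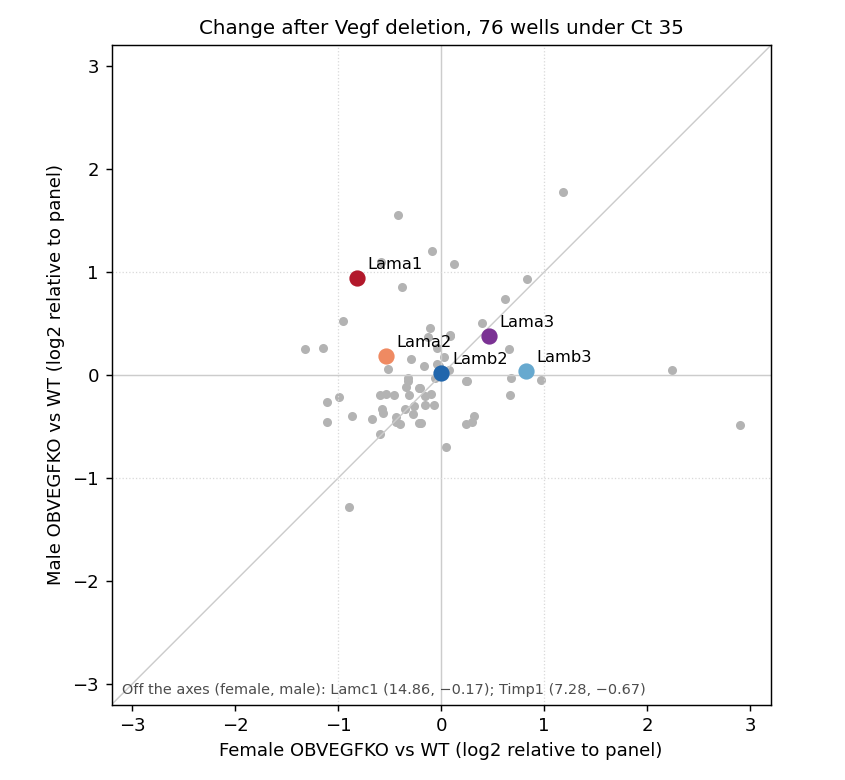
Log2 difference between OBVEGFKO and WT cells relative to the panel in female (x axis) and male (y axis) cultures for the wells under Ct 35 in all cultures; coloured points are laminin genes, dotted lines mark 2-fold and the diagonal marks equal change. *Lama1* lies at −0.82 in female cells (2.62 without scaling) and 0.94 in male cells and *Lamb2* close to the origin, while *Lamc1* and *Timp1* fall outside the axes and are given as text.

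The distance in Ct between 2 laminin wells of the same culture needs no panel reference, but makes one of the wells the reference. *Lamb2* differed from the panel by only 0.00 in females and 0.02 in males between OBVEGFKO and WT cells. Distances from it thus nearly repeat the panel values and are no separate support for them. From *Lamb2* to *Lama1* it was 9.61, 10.43, 10.03 and 9.11 cycles. It was thus wider by 0.82 cycles in OBVEGFKO than in WT cells of females, and in males it decreased by 0.92 cycles. The difference in this distance between OBVEGFKO and WT cells was 0.54 cycles in females and −0.16 in males for *Lama2*. For *Lama3* it was −0.46 and −0.36 cycles, and for *Lamb3* it was −0.82 and −0.02. *Lama3* and *Lamb3* thus stood closer to *Lamb2* after loss of *Vegf* in both sexes, *Lamb3* by little in males.

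Between WT cultures, the Ct of all 6 laminin wells was lower in male than in female cells, by 0.05 cycles for *Lama1*, 0.79 for *Lama2*, 0.23 for *Lama3*, 0.47 for *Lamb2*, 0.98 for *Lamb3* and 0.41 for *Lamc1*. The Ct of 65 of the 76 wells was lower in male WT cells, with a median of −0.44 cycles. Against the panel, *Lamb3* (0.55, 10th) and *Lama2* (0.36, 14th) were higher in male WT cells and *Lama1* (−0.38, 63rd) and *Lama3* (−0.20) were lower, though these turned positive, at 0.05 and 0.23, where Ct was not scaled. *Lamb2* (0.04) and *Lamc1* (−0.02) were close to the panel, and their sign changed with the reference. No laminin gene was 2-fold from the panel, against 11.8% of the wells.

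Between OBVEGFKO cultures, the α1 and α2 chain genes were the laminin genes highest in males against the panel. The Ct of *Lama1* was 29.47 in males against 30.74 in females, which is 2.60-fold more in males relative to the panel (log2 difference of 1.38). It was the highest of the 76 wells, but just ahead of *Itgal* (1.36), *Spock1* (1.34) and *Itga2* (1.30). The Ct of *Lama2* was 25.57 against 26.54, which is 2.11-fold more (1.08, 5th). These 2 values depended little on the scaling, with ranges of 1.27 to 1.38 and 0.97 to 1.08, although *Lama2* was short of 2-fold without scaling. *Lamb2* (0.06), *Lamb3* (−0.23) and *Lama3* (−0.28) were within the interquartile range of −0.29 to 0.42. With *Lamc1* as deposited (−15.05), 3 of 6 laminin genes were 2-fold from the panel, and 2 of 5 without it. The share was 13.2% of the 76 wells, these laminin genes included. This comparison shares both of its cultures with the comparisons of OBVEGFKO with WT above.

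With both sexes in one model, each genotype had 2 cultures and a limma fit across the 76 wells, with terms for sex and genotype, left 1 residual degree of freedom per well. That residual is set by the male minus female difference of the well given above, in which a sex difference and error cannot be told apart. The SEs and intervals below are thus no separate estimate of the error of a culture. Scaled to the panel, no laminin gene passed the threshold of 0.05 on the adjusted p for genotype, whereas all 6 passed without scaling, where 75 of the 76 wells did. For *Lamc1*, fitted as deposited, that pass rests on the doubtful reading. The p-values here measure no spread between replicate cultures. Scaled to the panel, the error of a well combined its own residual with the spread of the other wells. Without scaling, all wells shared the same variance, and a well's own spread had no weight. The effect of OBVEGFKO over both sexes, relative to the panel, was 0.42 ± 0.11 (SE) for *Lama3* (95% interval −0.03 to 0.87, adjusted p = 0.38 by limma), with both sexes in the same direction. It was 0.43 ± 0.29 for *Lamb3* (−0.81 to 1.66, limma adjusted p = 0.562), −0.18 ± 0.27 for *Lama2* (−1.33 to 0.97, limma adjusted p = 0.758) and 0.06 ± 0.62 for *Lama1* (−2.58 to 2.70, limma adjusted p = 0.968). The *Lama2* and *Lama1* effects turned on single cultures, at 0.36 and 0.75 without female OBVEGFKO and at −0.72 and −0.63 without male OBVEGFKO cells in a fit without a sex term. In the same fits the *Lamb3* effect ranged from 0.15 without female WT to 0.70 without male WT cells. *Lamb2* had the narrowest interval, from −0.43 to 0.44 around 0.01. *Lamc1* gave 7.34 ± 5.27 as deposited (limma adjusted p = 0.562). With the doubtful reading dropped, *Lamc1* gave −0.17 ± 0.21 from 3 cultures with no residual degree of freedom of its own (limma adjusted p = 0.735). Of all 76 wells, 0 passed the adjusted threshold (0%) and 6 had an unadjusted p under 0.05, none of them a laminin gene.

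The same limma fit gave the effect of sex over both genotypes. Among the laminin genes it was highest for *Lama2*, at 0.72 ± 0.27 (SE) in favour of male cells (95% interval −0.43 to 1.87, limma adjusted p = 0.442), with male cells higher in both genotypes. *Lama1* gave 0.50 ± 0.62 (−2.14 to 3.14), *Lamb3* 0.16 ± 0.29 (−1.08 to 1.39), *Lamb2* 0.05 ± 0.10 (−0.39 to 0.48) and *Lama3* −0.24 ± 0.11 (−0.69 to 0.21). *Lamc1* gave −7.54 ± 5.27 as deposited and −0.02 ± 0.21 without the doubtful reading. Again 0 of 76 wells passed (0%), with 9 at an unadjusted p under 0.05 in limma. The intervals of *Lama1*, *Lama2*, *Lamb3* and *Lamc1* as deposited include changes of more than 2-fold for both genotype and sex, so changes of that size could have gone undetected, and an exact permutation test of 2 against 2 cultures could not go below p = 0.333.

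The partners of laminin in the basement membrane were 7 wells named by the layout, of which *Col4a3* could not be fitted and the other 6 did not pass the limma threshold for genotype or sex. *Col4a1* and *Col4a2*, the chains of the common collagen IV network, differed from the panel on the log2 scale, OBVEGFKO versus WT, by −0.07 in females and −0.29 in males (*Col4a1*) and by −0.32 and −0.03 (*Col4a2*). *Col4a3*, a chain of the specialised network of kidney and lung, was at 35 in both WT cultures and at 31.01 and 31.42 in female and male OBVEGFKO cells. Among the subunits of laminin-binding integrins, *Itgb1* (β1) was close to the panel, with 0.03 in female and 0.17 in male cells. *Itga3* (α3) was lower relative to the panel in both sexes, at −0.40 and −0.48, although its Ct, like that of every fitted well, was lower in OBVEGFKO cells, and *Itgb4* (β4) stood at −0.52 and 0.06. *Itga2* (α2) stood at −1.15 in female (2.22-fold from the panel) and 0.26 in male cells, and between the OBVEGFKO cultures the males were 2.46-fold above the females (1.30). The median limma effect of genotype was −0.18 over the 2 collagen IV wells fitted and −0.34 over the 4 integrin wells.

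The wells most like each laminin gene were those at the smallest root mean square distance over the 4 cultures, after each well was centred on its mean. *Lama1* was nearest to *Mmp1a* (E08, a collagenase gene), at 0.20, and *Itga2*, at 0.27. *Lama2* was nearest to *Ncam2* (F03, a neural adhesion molecule) and *Tnc* (G09, tenascin C), both at 0.22. Both genes were farther from their nearest well than was typical, as the median of this distance over the wells was 0.09. *Lamb2* was nearest to *Mmp10* (E02, a stromelysin) and *Itgb1*, both at 0.05. *Lamb3* was nearest to *Mmp8* (E12, the neutrophil collagenase), at 0.12, and *Adamts8* (A04), at 0.19. *Lamc1* as deposited had *Postn* (5.14) and *Col2a1* (5.90) as its nearest wells, far from it. Without the doubtful reading it was nearest to *Spp1* (osteopontin), at 0.01, and *Tgfbi*, at 0.04, over 3 cultures only.

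*Lama3* was nearest to *Entpd1* (C01, the ectonucleotidase CD39 of leukocytes and endothelium), at 0.06, and to *Itgb2*, at 0.14. The summed level of the leukocyte wells *Itgal*, *Itgam*, *Itgax* and *Itgb2*, as a multiple of the panel reference, was 4.97, 7.19, 4.25 and 6.89, with *Itgb2* the earliest to amplify by median Ct. Sums like this one take all primers as equal. The sum is mostly *Itgb2*, which was also chosen as a well near *Lama3*. The log2 differences of OBVEGFKO from WT relative to the panel were −0.09 and 1.20 in females and males for *Itgal*, −0.11 and 0.46 for *Itgam*, 0.83 and 0.93 for *Itgax* and 0.62 and 0.74 for *Itgb2*, so the females were divided. The median limma effect of genotype was 0.61 over these 4 wells, and 0 passed the threshold. The summed level of the endothelial wells *Pecam1* and *Selp* was 0.0664, 0.0451, 0.0217 and 0.0112. *Sele*, the other endothelial well, enters none of these sums, as it was at the limit in 3 cultures and had its doubtful reading in the fourth. That of *Cdh1* and *Itgb4*, the epithelial wells, was 0.0517, 0.0390, 0.0428 and 0.0547, where the male WT value is *Itgb4* alone because *Cdh1* was at the limit there. *Cdh1* stood at 0.57 in female OBVEGFKO versus WT cells and at 3.25 or more in males, relative to the panel. The median limma effect of genotype was −0.71 over the 2 endothelial wells fitted, −0.23 for the 1 epithelial well fitted and −0.07 over the 4 osteoblast matrix wells, with 0 past the threshold. The matrix wells were divided, with effects of 1.20 for *Postn*, 0.12 for *Col1a1*, −0.25 for *Spp1* and −0.60 for *Sparc*. *Postn* itself stood at 2.90 in females and −0.49 in males. The part of leukocyte, endothelial or epithelial cells in the laminin values was not tested.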

How the data were processed

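The authors deposited the Ct of 84 wells for 4 cultures, not normalised, from SYBR Green quantitative PCR on an extracellular matrix and adhesion array with a StepOnePlus instrument. A second deposited table holds the authors' own fold changes (ratios, ΔΔCt against the housekeeping genes of the array) and was not used, and 0 other columns of values were left out. The plan was to scale to housekeeping wells, with the panel mean where these were not given, and the latter was used. The members and gene lists were chosen with earlier results of these data known. The wells named were all 6 laminin wells, 7 basement membrane partners, the 2 wells nearest to each laminin and the cell type markers. *Timp1*, *Tgfbi*, *Hc*, *Itgae*, *Cdh3* and *Spock1* were named after their values were seen. One planned cell type marker is not reported here. With *Col1a1* taken from the layout as the anchor, the Ct differences of 10 further wells matched the fold changes printed by the study for the genes the layout puts there. The remaining names come from the layout and have no such check.

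Calls at 2-fold used an efficiency of 2 per cycle. Models across all 76 wells under 35 used limma 3.58.1 in R 4.3.3, Benjamini-Hochberg adjustment over these wells and a threshold of 0.05, and the script was tested on simulated data. Figures were made with matplotlib 3.10.9. A reading more than 5 cycles from all others of its well was called doubtful. The number of animals or isolations behind a culture is not given in the sources used here. The alternatives were other references, an efficiency of 1.9, other well filters and folds, robust moderation, no sex term and each culture left out.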

Additional observations from a re-analysis of the deposited data

Results flagged for a closer look

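Some laminin genes had a change from WT to OBVEGFKO, relative to the panel, of opposite sign in female and male cells. Each change compares single cultures, and for none of these genes was the gap between the sexes tested. For *Lama1* the male minus female difference was 1.76, from −0.82 in female and 0.94 in male cells. For *Lama2* it was 0.72, from −0.54 and 0.18. The opposite signs of both genes rest on scaling to the panel, since without scaling the female values were 2.62 and 2.90. For *Lamb2* it was 0.02, from 0.00 in female and 0.02 in male cells. Its 2 signs differed only before rounding, and each depended on the reference. For *Lamc1* it was −15.03, which rests on the doubtful Ct of 13.67 in female OBVEGFKO cells.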

How the results depend on the processing

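Without scaling, limma called 75 wells for genotype in place of 0 and 1 for sex, *Lamc1* as deposited. The effect of genotype on *Lama2* then turned from −0.18 to 2.99, since the change in Ct shared by the array was no longer removed. With the median Ct as the reference, limma called 3 wells for sex, *Lamc1* as deposited, *Col2a1* and *Pecam1*, and the cause was not tested. That reference shifted the median of the 76 wells to −0.38 and −0.12 for OBVEGFKO versus WT in females and males and to −0.22 for male versus female WT. With each culture left out in turn, without a sex term, 1 genotype was a single culture. The spread then came from the other genotype and the other wells, so only effects are given from these fits. That of *Lamc1* was 14.87 without male OBVEGFKO cells, which rests on the doubtful reading, and −0.18 without female OBVEGFKO cells. Every other alternative to the limma fit gave 0 calls. Without scaling, 76 wells were 2-fold apart in both comparisons of OBVEGFKO with WT. Including wells at the limit gave 12 in place of 6 in males. At 1.5-fold the numbers were 24 and 12 for OBVEGFKO versus WT in females and males, and 17 and 23 for male versus female WT and OBVEGFKO. At 4-fold they were 4, 0, 3 and 4. Leaving wells with a doubtful reading out of the reference, chosen after seeing the data, moved no count by over 1.5 times. The labels give no replicate numbers, so no pairing by replicate was made. With sex as a term, the limma fit compared the WT and OBVEGFKO cultures within each sex. Late amplification limits *Lama1*, *Lamb3* and *Lamc1*, and 1 reading per well leaves no technical error.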
